A study of Mus musculus with 239 samples.

Results

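The comparison set the 34 virgin basal cells against the 54 virgin luminal cells, 88 of the 239 single-cell libraries of the series. Membership followed the labels of gland state and sort gate. The donors were FVB female mice of 3 to 4 months, not pregnant, and their inguinal mammary glands were digested in a medium that held insulin, EGF and hydrocortisone. After depletion of blood and endothelial cells, cells in the CD24-mid CD29-high gate were collected as basal and those in the CD24-high CD29-low gate as luminal. Single cells were captured on Fluidigm C1 chips, where capture sites were looked at under a microscope for doublets, and full-length cDNA was made with the SMARTer kit. No label named the mouse, the chip or the day of a cell, so gate and chip cannot be told apart, each gate counted as 1 sample, no statistical test was possible, and every difference below describes these cells only.

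The mammary duct is a bilayer. Basal cells lie on the basement membrane, most of them are contractile myoepithelial cells that squeeze milk out at nursing, and they are known to make much of that membrane's protein. Luminal cells line the lumen and hold the estrogen, progesterone and prolactin receptors as well as the precursors of milk-secreting cells, so signals between the layers are a central theme of mammary biology.

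Expression was given as FPKM, fragments scaled to transcript length and to the mapped fragments of the cell. The difference reported for a gene is the mean over basal-gate cells minus the mean over luminal-gate cells of log2(FPKM + 1), so a positive value is higher in basal and a negative value higher in luminal cells. The added 1 makes this scale understate the change of low genes. A gene was counted as higher in a gate when the difference reached 1, and as detected in a cell at 1 FPKM or more. An FPKM of 0 in 1 cell says only that the gene was listed at 0.

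The gates differed in how many genes a cell showed. Luminal-gate cells had a lowest, median and highest of 1081, 3773 and 5978 genes at 1 FPKM or more, and basal-gate cells 828, 1825 and 4284. Of the 34 basal cells, 32 lay below the first quartile of the luminal cells (3374 genes). The gap was also there at 10 FPKM, with medians of 1116 genes in basal and 2199 in luminal cells. Depth, estimated from the smallest steps between low values, had medians of 6.18 M fragments in basal and 8.53 M in luminal cells, M standing for 1e6. Among cells of 5 to 10 M fragments the medians were 1916 genes in 12 basal and 3814 in 41 luminal cells. Because gene number moves with nearly every comparison below, values are also given for the 12 basal and 53 luminal cells that had at least 2000 genes. Gene number still differed within this set, with medians of 2497 in basal and 3781 in luminal cells. Depth differed there too, with medians of 15.1 M fragments in basal and 8.54 M in luminal cells. Over all cells depth ran from 2.14 M to 39.9 M in basal and from 1.17 M to 28.5 M in luminal cells. Cell size and RNA content per cell were not measured, and their part in the gene numbers was not tested.

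Most basal-gate cells carried the markers of their gate and some did not. The mean log2(FPKM + 1) of Krt17, Krt14 and Acta2, the keratins and smooth muscle actin of myoepithelial cells, lay between 4.27 and 12.2 in 28 basal cells and between 0 and 2.17 in luminal cells. In the other 6 basal cells it lay between 0.06 and 3.23, and these cells had 6 to 8 of 11 endothelial markers at 1 FPKM or more. Their summed endothelial FPKM ran from 233 to 6733 with a median of 1289, against 0 to 54.5 in the other 28 basal cells and 0 to 45.1 in luminal cells. The sort stain held an antibody to CDH5, an endothelial cadherin, and Cdh5 itself was at 1 FPKM or more in 5 of these 6 cells. In luminal cells Cdh5, Kdr, Tek, Tie1, Esam and Cldn5 were listed at 0 throughout. No luminal cell and none of the 28 other basal cells had 3 or more of these markers. The luminal pair Krt18 and Krt19 had a mean log2 level of 6.48 to 12.1 in luminal cells and 0 to 8.85 in basal cells, and no cell of either gate had more of the opposite gate's marker set than of its own. One further basal cell had 8 of 10 fibroblast markers, a summed fibroblast FPKM of 5719.7 and the lowest basal marker level of the 28, 4.27, and it was among the 12 basal cells of 2000 genes or more, with 2026. No virgin cell had 3 or more of 11 immune markers, and no virgin basal cell reached 1 FPKM for any of them. At least 3 of 7 Schwann cell markers were found in 8 basal cells, 7 of them without endothelial markers, and in 3 luminal cells. Pmp22 (3.28) and S100b (1.03) of that list were higher in basal cells. Results are given with and without the 6 endothelial-marker cells where they differ. None of the 6 was among the 12 basal cells of 2000 genes or more, so that set also leaves them out.

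**Figure D1:**
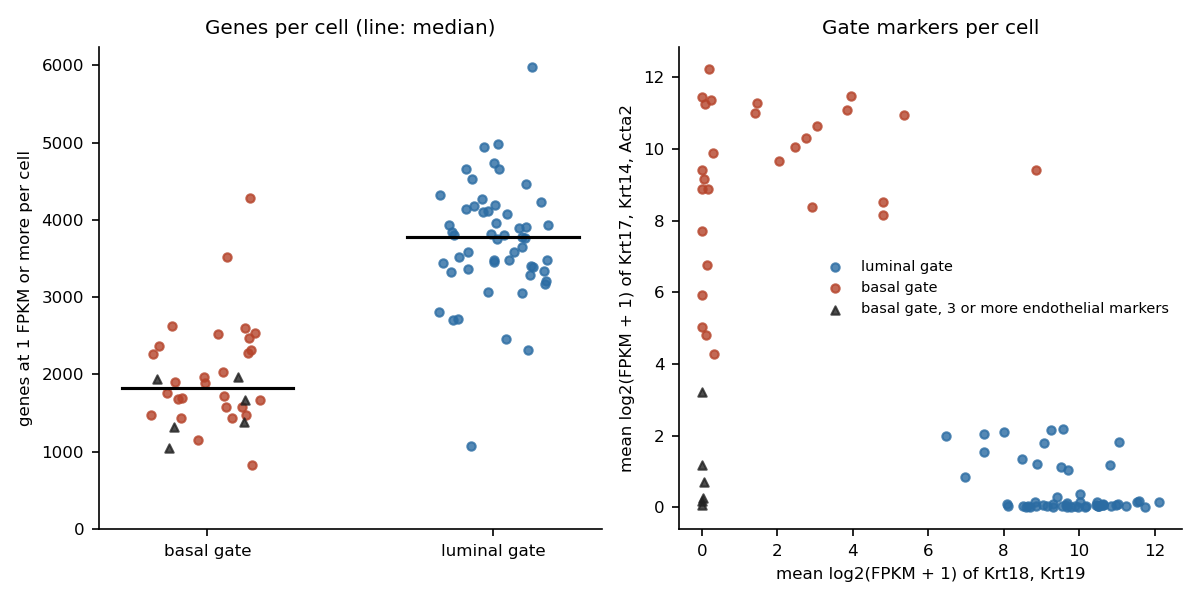
Left, genes at 1 FPKM or more in each cell by gate, with the median as a line (1825 basal, 3773 luminal); right, the mean log2(FPKM + 1) of the basal markers against that of the luminal markers in each cell. Black triangles are the 6 basal-gate cells with 3 or more endothelial markers, which lie low on both axes, and 1 basal cell reached 8.85 on the luminal axis.

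Over the 13203 genes that reached 1 FPKM in at least 1 virgin cell, 252 (1.91%) were higher in basal and 2785 (21.1%) higher in luminal cells by at least 1, and the median difference was -0.28. Without the 6 endothelial-marker cells the counts were 271 (2.05%) and 2693 (20.4%). In cells of 2000 genes or more they were 504 (3.82%) and 2254 (17.1%). When only the 828 most abundant genes of each cell were kept, which gives every cell the same number of genes, they were 424 (3.21%) and 718 (5.44%). Against this background, secreted proteins were the class with the most genes higher in basal cells. Of 259 secreted proteins that reached 1 FPKM, other than ligands, 48 (18.5%) were higher in basal and 36 (13.9%) in luminal cells, with a median difference of 0.10. Ligands gave 11 (6.67%) and 16 (9.70%) of 165 with a median of -0.01, and receptors 9 (4.5%) and 15 (7.5%) of 200 with a median of -0.05. Transcription factors lay nearest to the background, with 8 (3.09%) higher in basal and 40 (15.4%) higher in luminal cells among 259 and a median of -0.18.

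In cells of 2000 genes or more the balance shifted toward basal cells in each class, as it did over all genes (3.82% and 17.1%). This set held none of the 6 endothelial-marker cells, so it differed from all cells in more than gene number. Secreted proteins then gave 64 (24.7%) higher in basal and 32 (12.4%) higher in luminal cells, and ligands 19 (11.5%) and 14 (8.48%). Receptors gave 15 (7.5%) and 10 (5%), and transcription factors 23 (8.88%) and 33 (12.7%). With equal gene number per cell the secreted class gave 37 (14.3%) and 28 (10.8%), ligands 12 (7.27%) and 7 (4.24%), and receptors 10 (5%) and 4 (2%). Transcription factors gave 23 (8.88%) and 10 (3.86%), so that they changed from more luminal to more basal genes. Over all genes the shares were 3.21% and 5.44% in this setting, so the luminal share fell there as well. Without the 6 endothelial-marker cells the secreted class gave 52 and 35, and without the fibroblast-marker cell it gave 48 and 36 over all cells and 60 and 30 in cells of 2000 genes or more. The lists held 370 transcription factor, 252 receptor, 261 ligand and 368 secreted protein genes of the table, and those not counted here did not reach 1 FPKM in any virgin cell.

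**Figure D2:**
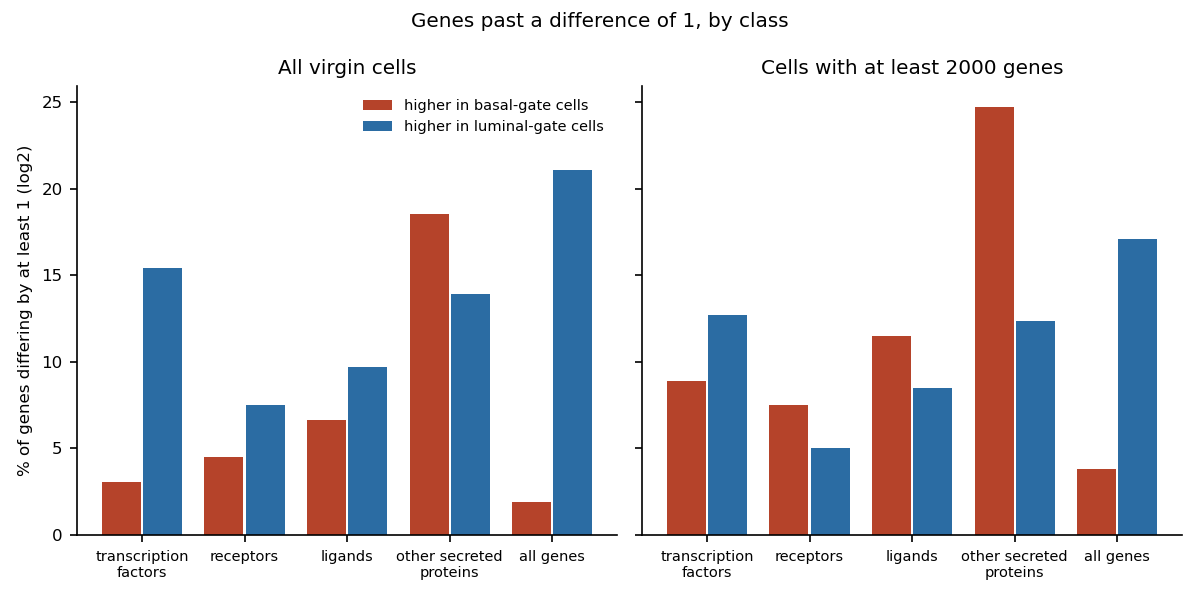
Percent of genes whose mean log2(FPKM + 1) differed by at least 1, higher in basal-gate (red) or luminal-gate cells (blue), by class and for all 13203 genes, in all virgin cells (left) and in cells with at least 2000 genes (right). Secreted proteins had the tallest basal bar in both panels, 18.5% and 24.7%, against 1.91% and 3.82% of all genes.

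Over all cells 8 transcription factors were higher in basal cells: Cebpb, Smad7, Smad1, Egr3, Trp63, Nfix, Nr4a2 and Snai2. The count was 23 with equal gene number and 33 in 8 pairs of basal and luminal cells matched on gene number, where 30 were higher in luminal cells and the shares over all genes were 8.4% and 11.6%. Trp63 encodes p63, the factor on which basal identity of stratified and mammary epithelium rests. It (chr16:25683763-25892102, GRCm38) was at 0, 0 and 144 FPKM as lowest, median and highest in basal cells and never above 0.138 FPKM in luminal cells, a difference of 1.45. It was detected in 10 of 34 basal cells (29.4%, 95% interval 15.1 to 47.5%, exact Clopper-Pearson, as are all intervals here) and in 0 of 54 luminal cells, where the limit of 3 cells would be 5.56% and the exact interval reaches 6.60%. Most basal cells were thus listed near 0 for Trp63, and the groups overlapped at 0. Among the 12 basal cells with at least 2000 genes, 6 had it and the difference was 2.41. These intervals cover counting error over cells only.

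Snai2, the zinc finger repressor also called Slug, was at 0, 0.285 and 577 FPKM in basal cells and 0, 0.608 and 3.32 FPKM in luminal cells, again as lowest, median and highest. The basal median was the lower of the 2 while the mean log2 difference was 1.04: the difference came from a few basal cells far above the rest, and the luminal cells all stayed low. In cells of 2000 genes or more it was 1.96. The 5 mesenchymal transition factors that reached 1 FPKM gave 1 higher in basal cells, Snai2 itself, and 0 higher in luminal cells. Over all genes the shares were 1.91% and 21.1%, and counts over 5 genes say little about the family. Zeb1, another such repressor, was detected in 2 basal and 0 luminal cells.

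Cebpb, a leucine zipper factor needed for ductal growth and alveolar differentiation, was detected in every basal cell. Its values were 1.76, 16.5 and 165 FPKM in basal cells and 0, 4.01 and 67.1 FPKM in luminal cells. It was found in 34 of 34 basal and 40 of 54 luminal cells, the ranges overlapped, and the difference was 1.93, 1.57 in cells of 2000 genes or more. The 6 endothelial-marker cells all had it too, and without them the difference was 2.08.

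Of 15 NFI, RUNX and SMAD factors, 3 were higher in basal and 1 in luminal cells, against 1.91% and 21.1% of all genes. Smad1, which relays BMP signals, was at 0, 7.17 and 164 FPKM in basal and 0, 0.335 and 71.7 FPKM in luminal cells, with a difference of 1.74. Smad7, the inhibitory SMAD that TGF-beta induces, was detected in 29 of 34 basal and 35 of 54 luminal cells, with medians of 61.1 and 16 FPKM and a difference of 1.81. It was 0.84, below 1, in cells of 2000 genes or more. Nfix, an NFI family factor, differed by 1.35 and its relative Nfib by -1.20, so members of 1 family pointed both ways. Nfib turned to -0.12 in cells of 2000 genes or more, near 0.

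A pair of immediate early genes completed the basal set, and neither kept a difference of 1 in cells of 2000 genes or more. Egr3 differed by 1.59 in all cells and 0.47 among those with at least 2000 genes. Nr4a2, an orphan nuclear receptor, differed by 1.34 and 0.20. Fos, Jun and Atf3, of the same rapid response, were higher in luminal cells over all cells (-2.60, -2.10 and -3.12), yet in the matched pairs they stood at 1.17, 1.45 and 0.33. One of those 8 basal cells was an endothelial-marker cell. In cells of 2000 genes or more Fos and Atf3 were at -2.84 and -2.53, and with equal gene number at -2.33 and -2.32, so the matched pairs alone turned these 2.

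Over all cells 40 factors were higher in luminal cells, among them ETS, GATA and hormone pathway genes. Of 23 ETS factors, 7 were higher in luminal and 0 in basal cells (median -0.08), 6 and 1 in cells of 2000 genes or more, against a background of 21.1% and 17.1% higher in luminal cells, and 2 and 0 with equal gene number. Ehf, an epithelial ETS factor, was at 0, 0.0168 and 147 FPKM in basal and 0, 18.9 and 248 FPKM in luminal cells. It was found in 1 of 34 basal and 41 of 54 luminal cells, with a difference of -3.50, so that a single basal cell overlapped the main body of luminal cells. That cell was also the basal cell at 8.85 for Krt18 and Krt19, and it had 2311 genes. Its log2(FPKM + 1) was 12.1 for the luminal gene Wfdc18 and 10.8 for Clu, beside 9.43 for the basal markers. Whether it was a doublet was not tested. Elf5, the ETS factor of alveolar precursors, was detected in 0 basal and 14 luminal cells, with a difference of -1.19. Ets2 and Elf3 differed by -2.85 and -2.53.

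Gata3, which maintains luminal differentiation, was at 0.0325, 0.598 and 572 FPKM in basal and 0.529, 57.9 and 444 FPKM in luminal cells, a difference of -3.53. The gene was detected in 53 of 54 luminal cells and 14 of 34 basal cells, none of them an endothelial-marker cell, and the basal maximum lay above the luminal maximum. Trps1, a GATA-type repressor, differed by -3.09. Hes1, the best known target of Notch signalling, differed by -2.40. It was detected in 5 of the 6 endothelial-marker cells and 8 of the other 28 basal cells, and without the 6 the difference was -3.10. With equal gene number per cell, however, Hes1 turned toward basal cells, as listed below.

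The hormone pathway factors were present in only a share of luminal cells. Esr1, the estrogen receptor, was at 0, 0 and 73.3 FPKM in basal and 0, 3.89 and 158 FPKM in luminal cells and was detected in 2 and 33 of them. Cited1, a coactivator that works with estrogen receptor and SMAD proteins, was detected in 38 of 54 luminal cells (70.4%, 95% interval 56.4 to 82%) and 0 of 34 basal cells, where the limit of 3 cells would be 8.82% and the exact interval reaches 10.3%. Its luminal values split widely, at 0, 225 and 5054 FPKM, and the difference was -5.44. Foxa1, a pioneer factor for Esr1, and Pgr, the progesterone receptor, were detected in 24 and 21 luminal cells and in no basal cell.

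Sox9 and Sox10 are factors of mammary progenitors. Sox9 was detected in 22 of 34 basal and 50 of 54 luminal cells and was higher in luminal cells by the rule (-1.88), and none of the 6 endothelial-marker cells had it, so without them the difference was -1.08. It was -0.88, short of 1, in cells of 2000 genes or more. Sox10 was detected in 10 basal and 18 luminal cells with a difference of 0.18.

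**Figure D3:**
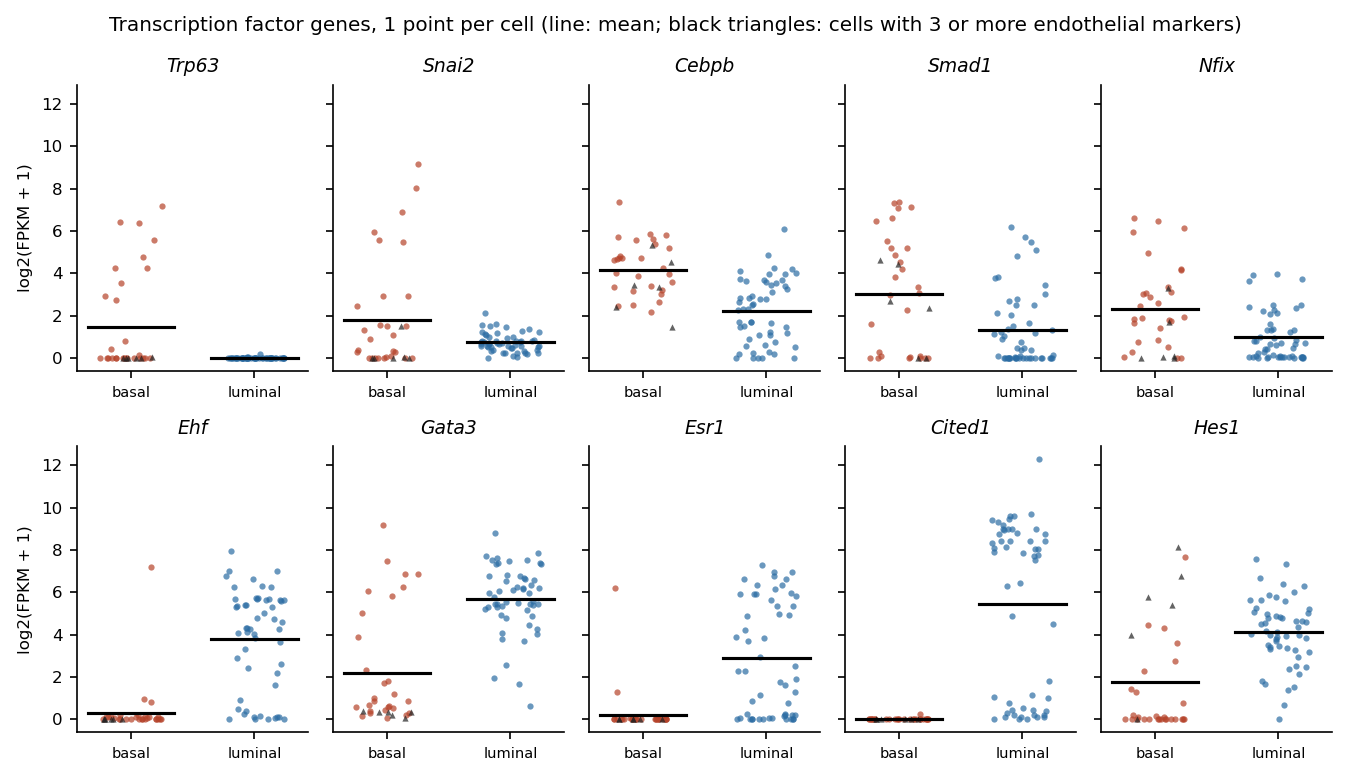
log2(FPKM + 1) of 10 transcription factor and cofactor genes, 1 point per cell, with the mean over cells as a line; basal-gate cells are red, luminal-gate cells blue and the 6 endothelial-marker cells black triangles. Trp63 was above 1 FPKM in 10 basal cells only, Cebpb in every basal cell, and Cited1 split the luminal cells into 38 with it and 16 without.

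Receptors differed in small numbers in each direction. Tgfbr3 encodes betaglycan, a co-receptor that presents TGF-beta ligands and inhibin. Its values were 0, 10.5 and 434 FPKM in basal and 0, 0.0076 and 199 FPKM in luminal cells, and it was detected in 23 of 34 and 8 of 54. The difference of 3.15 was 5.50 in cells of 2000 genes or more, where 12 of 12 basal and 8 of 53 luminal cells had it. A few luminal cells reached the basal range.

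Igf1r, the IGF receptor, was at 0, 1.58 and 95.7 FPKM in basal and 0, 0.0377 and 4.76 FPKM in luminal cells, with a difference of 1.69 that was 1.76 in cells of 2000 genes or more. No luminal cell exceeded 4.76 FPKM, while the basal cells reached 95.7. Igf2r, which clears IGF2 and carries lysosomal enzymes, went the other way at -1.95, and Insr, the insulin receptor, differed by -0.35. Osmr, the oncostatin M receptor, was broad in both gates, in 25 of 34 basal and 35 of 54 luminal cells, with medians of 30.4 and 3.97 FPKM and a difference of 1.87.

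Lgr4, a receptor for R-spondins that amplifies Wnt signals, was at 0, 42.6 and 322 FPKM in basal and 0, 8.27 and 90.7 FPKM in luminal cells. The gene was found in 23 of 28 basal cells and in 0 of the 6 endothelial-marker cells, so its difference of 1.36 was 2.26 without them and 3.41 in cells of 2000 genes or more. Of 17 Wnt receptors, Lgr4 was the 1 higher in basal cells and 0 were higher in luminal cells, against 1.91% and 21.1% of all genes. These counts were 2 and 0 in cells of 2000 genes or more, in the matched pairs and without the endothelial-marker cells. Lgr5, its relative that marks stem cells in other tissues, was detected in 8 basal and 2 luminal cells, just below the threshold at 0.93, and it was 1.16 without the endothelial-marker cells.

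Axl, a receptor tyrosine kinase, and Ackr3, a scavenger of the chemokine CXCL12, were each found in a minority of basal cells. Axl was detected in 10 of 34 basal and 1 of 54 luminal cells (1.40), and Ackr3 in 12 and 4 (1.47). Adgrg1, an adhesion receptor, differed by 1.29, which went to 0.71 without the endothelial-marker cells. Flt1, a VEGF receptor of endothelium, and the thrombin receptor F2r also passed 1. Flt1 went from 1.07 to 0.01 without the 6 cells, while F2r went from 1.24 to 1.01.

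Prlr, the prolactin receptor, showed the widest receptor difference toward luminal cells. Its values were 0, 0.159 and 3.26 FPKM in basal and 0.0434, 67.7 and 386 FPKM in luminal cells. It was found in 1 of 34 basal cells (2.94%, 95% interval 0.0744 to 15.3%) and 51 of 54 luminal cells (94.4%, 95% interval 84.6 to 98.8%), and only the lowest luminal cells fell within the basal range. The difference was -5.15, -5.28 in cells of 2000 genes or more and -4.11 in the matched pairs.

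Fgfr2, which receives FGF signals from the stroma, was at 0, 0 and 107 FPKM in basal and 0, 25.9 and 432 FPKM in luminal cells, with a difference of -2.52. Of 35 cytokine receptors, 5 were higher in luminal and 1 in basal cells, a luminal share below the 21.1% of all genes. Ifngr2, a chain of the interferon gamma receptor, differed by -2.61, with no basal cell above 5.59 FPKM. Il13ra1, a chain of the IL-4 and IL-13 receptors, differed by -2.17 in all cells and by -0.64 in cells of 2000 genes or more, below the threshold.

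Other receptors often discussed in mammary biology differed little or were found in few cells. None of the 4 EGF receptor family genes reached a difference of 1 over all cells. Egfr was detected in 9 of 34 basal and 6 of 54 luminal cells (0.75), and it passed 1 in cells of 2000 genes or more (1.26) and in the matched pairs (1.23). Erbb3 was detected in 0 and 19 (-0.99). None of 10 Eph receptors reached 1. Among the 4 Notch receptors, Notch2 was higher in luminal cells (-1.28, but -0.34 in cells of 2000 genes or more). Notch1 differed by -0.22, and Notch3 was detected in 0 basal and 6 luminal cells. Kit, a marker of luminal progenitors, was detected in 1 basal and 14 luminal cells (-1.02). Oxtr, through which oxytocin makes myoepithelial cells contract, was detected in 7 of 34 basal and 2 of 54 luminal cells (0.61).

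The basal ligands were led by 3 genes that were nearly silent in luminal cells. The gene 1500015O10Rik, also named Ecrg4, encodes augurin, a precursor of secreted peptides. Its values were 0, 249.9 and 3130.5 FPKM in basal and 0, 0 and 33.3 FPKM in luminal cells. The gene was detected in 25 of 34 and 2 of 54 cells, and its difference of 5.96 was 7.45 in cells of 2000 genes or more.

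Cxcl14, a chemokine made by many epithelia, was at 0, 54 and 367 FPKM in basal cells and was listed at 0 in each of the 54 luminal cells. It was detected in 26 of the 28 basal cells without endothelial markers and in 0 of the 6 with them. The difference was 4.99 and, without the 6, 6.05. Among 26 chemokines it was the 1 higher in basal cells, and 4 were higher in luminal cells, shares near the 1.91% and 21.1% of all genes.

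Nrg1 (chr8:31814551-32884029) encodes neuregulin, the ligand of ErbB3 and ErbB4. In basal cells it was at 0, 1.6 and 2048 FPKM, and in luminal cells at 0, 0 and 156 FPKM, with 18 of 34 and 3 of 54 cells at 1 FPKM or more. In 15 of the 34 basal cells the level was above that of all but 1 luminal cell, and the other 19 overlapped the luminal cells. The difference of 3.71 was 5.29 in cells of 2000 genes or more. Its receptor Erbb3 was found in 0 of 34 basal and 19 of 54 luminal cells, and Erbb4 in 0 and 3.

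Of 7 Notch ligands, 2 were higher in basal cells and 0 in luminal cells, against 1.91% and 21.1% of all genes. Jag1 was at 0, 12.6 and 680.0 FPKM in basal and 0, 6.84 and 213 FPKM in luminal cells, a difference of 1.13 with full overlap, which was 2.34 in cells of 2000 genes or more. Dll1 was detected in 8 of 34 basal cells and 0 of 54 luminal cells (1.12), and its difference was 0.70 in cells of 2000 genes or more.

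Growth factors of other families divided between the gates. Mdk, the heparin-binding factor midkine, was detected in 13 of 34 basal and 1 of 54 luminal cells, with a difference of 1.93. Ptn, pleiotrophin, its only close relative, went the other way: it was at 0, 0.276 and 554 FPKM in basal and 0.214, 661 and 4469.7 FPKM in luminal cells, a difference of -4.74, and 15 of 34 basal cells had it. Pros1, protein S, an anticoagulant, was detected in 17 of 34 basal and 4 of 54 luminal cells (2.33). Pdgfa, a growth factor for stromal cells, was detected in 10 and 5 (1.08).

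Wnt ligands also divided over all cells. Of 8 Wnt ligands and R-spondins that reached 1 FPKM, Wnt10a was higher in basal cells, detected in 8 of 34 and listed at 0 in all luminal cells (1.20). Wnt4, which acts downstream of progesterone, was higher in luminal cells, detected in 7 basal and 28 luminal cells (-1.32), as were Wnt5a (-1.28) and Wnt5b (-1.12). The counts of 1 higher in basal and 3 in luminal cells stood against 1.91% and 21.1% of all genes. They became 1 and 2 in cells of 2000 genes or more, 1 and 1 in the matched pairs and 0 and 0 with equal gene number.

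Areg, amphiregulin, the EGF family ligand through which estrogen drives ductal growth, was listed at 0 in all 34 basal cells. In luminal cells its lowest, median and highest were 0, 62.7 and 1352 FPKM, and 42 of 54 had it (77.8%, 95% interval 64.4 to 88%). The difference was -4.93 in all cells, -4.91 in those with at least 2000 genes, -5.22 in the matched pairs and -4.01 with equal gene number.

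Further luminal ligands were each found in a share of the cells. Efna1, an ephrin, differed by -3.00. The chemokines Cxcl15 and Cxcl17 were detected in 28 and 19 luminal cells and in 1 and 0 basal cells. Stc2, a stanniocalcin, was detected in 30 luminal cells. Il33, an alarmin cytokine, and Calca, the calcitonin gene, were found in 15 and 18, with highest values of 1065 and 429 FPKM. Stc2, Il33 and Calca were listed at 0 in all basal cells. Tnfsf11, the ligand RANKL that relays progesterone signals, was detected in 7 of 54 luminal cells and no basal cell.

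**Figure D4:**
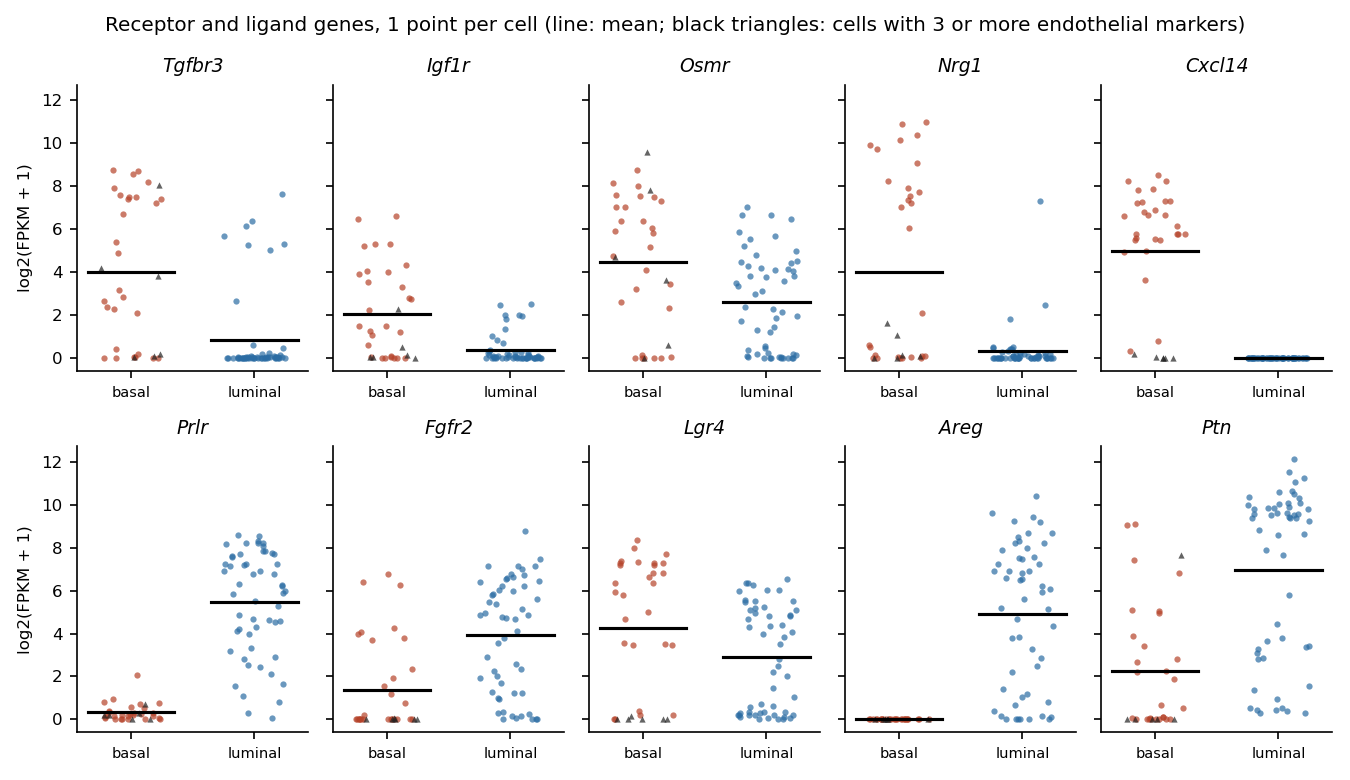
log2(FPKM + 1) of 10 receptor and ligand genes, 1 point per cell, with the mean as a line and colours as for the transcription factors. Cxcl14 and Nrg1 were high in many basal cells and near 0 in nearly all luminal cells, Areg and Prlr the reverse, and Lgr4 was near 0 in all 6 endothelial-marker cells.

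The largest differences of the comparison, beyond keratins and actins, were in secreted proteins. Sparc (chr11:55394500-55423183) encodes osteonectin, a collagen-binding matrix protein. Its values were 0.0997, 622 and 2709.6 FPKM in basal and 0, 0 and 1.3 FPKM in luminal cells, and it was detected in 33 of 34 and 1 of 54 cells. With 8.74 it had the largest basal difference of the genes considered, and it was 9.09 in cells of 2000 genes or more, 8.83 without the endothelial-marker cells and 8.48 in the matched pairs. All 6 endothelial-marker cells had Sparc, which endothelium is known to make.

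Apoe, apolipoprotein E, the lipid carrier, came next. It was at 0, 748 and 5899 FPKM in basal and 0, 0 and 105 FPKM in luminal cells, with a difference of 7.83, and 15 luminal cells had it. The 28 basal cells without endothelial markers all had it at 1 FPKM or more, and 5 of the other 6.

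Of 30 collagens that reached 1 FPKM, 8 were higher in basal and 1 in luminal cells, with a median difference of 0.40, against 1.91% and 21.1% of all genes. In cells of 2000 genes or more the counts were 14 and 1, and 12 and 1 without the fibroblast-marker cell, whereas with equal gene number they were 4 and 1. Col4a1 and Col4a2, the main chains of basement membrane collagen, differed by 3.24 and 3.60, and 27 of 34 basal cells but 1 of 54 luminal cells had Col4a2. Col8a1 was the collagen higher in luminal cells (-2.98). Of 14 laminin, nidogen and perlecan genes, 4 were higher in basal and 0 in luminal cells (median 0.50), 6 and 0 in cells of 2000 genes or more and 1 and 0 with equal gene number. Lama3, a chain of laminin-332, which anchors hemidesmosomes, was detected in 18 of 34 basal cells, all without endothelial markers, and 0 luminal cells (2.38). Col3a1, a fibroblast collagen, was at 1 FPKM or more in 1 basal cell only, which was at 912 FPKM.

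Secreted inhibitors of growth factor signals that passed a difference of 1 all did so toward basal cells. Of 17 Wnt and BMP antagonists, 5 were higher in basal and 0 in luminal cells (median 0.08), against 1.91% and 21.1% of all genes. The counts were also 5 and 0 in cells of 2000 genes or more, in the matched pairs and without the endothelial-marker cells. With equal gene number they were 3 and 0. Fstl1, follistatin-like 1, was at 0, 99.2 and 1487 FPKM in basal and 0, 0.029 and 0.944 FPKM in luminal cells, no luminal cell reaching 1 FPKM. Its difference of 4.70 was 7.53 in cells of 2000 genes or more, where 11 of 12 basal cells had it. Fst, follistatin, which binds activin, was at 0, 31 and 407 FPKM and 0, 0 and 8.19 FPKM and differed by 3.99. Wif1 and Dkk3 were detected in 12 and 11 of 34 basal cells and in 0 and 1 luminal cells.

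Postn, periostin, a matricellular protein, was at 0, 67.6 and 2906 FPKM in basal and 0, 0 and 179.9 FPKM in luminal cells and was found in 26 of 28 basal cells and 0 of the 6 endothelial-marker cells (4.95, 6.05 without them). Some proteases and inhibitors were also higher in basal cells. Timp3, a metalloprotease inhibitor held in the matrix, and Adamts1, a protease that cuts proteoglycans, differed by 4.05 and 4.10. Serpina3n, a serine protease inhibitor, was at 0, 8.97 and 1481 FPKM in basal and 0, 0 and 24.5 FPKM in luminal cells (3.80). Igfbp3, an IGF binding protein, was detected in 9 of 34 basal and 0 luminal cells. Igfbp5, another, was found in 23 and 39 cells and differed by 0.16 over all cells but 2.77 in cells of 2000 genes or more.

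Luminal secreted proteins were led by Spp1 (chr5:104435118-104441050), osteopontin, a phosphoprotein of milk and bone. It was at 0, 0.0757 and 11.3 FPKM in basal and 2.48, 741 and 39384 FPKM in luminal cells, was detected in all 54 luminal cells and 3 basal cells, and differed by -9.37. Only the lowest luminal cell, at 2.48 FPKM, fell within the basal range. Clu, clusterin, a secreted chaperone, was at 0, 0.0597 and 3109 FPKM and 18.4, 1038 and 7733 FPKM, again in all luminal cells, and differed by -8.52. Of the 7 basal cells with Clu, 3 were endothelial-marker cells.

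The WAP-domain inhibitors Wfdc18 and Wfdc2, small secreted antiproteases, followed with -7.42 and -6.38. Wfdc18 was detected in all 54 luminal cells, at 1.29, 314 and 27405 FPKM as lowest, median and highest, and Wfdc2 in 44 of them. Both were also detected in some basal cells. The highest basal log2(FPKM + 1) was 12.1 for Wfdc18, in the basal cell that had Ehf, and 5.51 for Wfdc2, in another cell. F3, tissue factor, which starts coagulation, differed by -5.69, and Trf, transferrin, an iron carrier of milk, by -5.11. Trf was detected in 17 of 34 basal cells, and its difference was -2.43 in cells of 2000 genes or more. Of 21 antimicrobial and mucosal defence proteins, 9 were higher in luminal cells and 0 in basal cells (median -0.60), against 21.1% and 1.91% of all genes. In cells of 2000 genes or more the counts were 9 and 2, against 17.1% and 3.82% of all genes. The acute phase genes Saa1 and Saa2 were detected in 40 and 33 luminal cells and no basal cell. Hp, haptoglobin, and Ltf, lactoferrin, were found in 34 and 27 luminal cells and in 1 basal cell each. Of 17 cathepsins and cystatins, 6 were higher in luminal and 1 in basal cells, against 21.1% and 1.91% of all genes.

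Only 1 gene of the 13203 (0.00757%) separated the gates without overlap, and none (0%) the other way. Mal2, a membrane protein of apical transport, had its lowest luminal cell at 0.192 FPKM, above its highest basal cell at 0.146, both far below 1 FPKM, and 51 of 54 luminal cells were at 1 FPKM or more (-7.46). By a looser rule, detection in at least 75% of 1 gate and under 10% of the other, 12 genes (0.0909%) were basal and 31 (0.235%) luminal. The basal 12 held Sparc, Cxcl14, Postn and Col4a2 beside Scn7a, S100b and contractile genes. The luminal 31 held Areg, Prlr, Ehf, Spp1, Wfdc2 and Spint1 beside Ly6d and the tight junction claudins Cldn3, Cldn4 and Cldn7. Spint1, an inhibitor of membrane serine proteases, and Tmprss13, such a protease, were detected in 48 and 53 of 54 luminal cells and in 2 and 1 basal cells.

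Promoter sequences are shown for Apoe, Postn, Spp1 and Wfdc18, the 2 secreted protein genes with the largest differences in each direction among those named whose RefSeq start lay within 100 bases of the gene's GENCODE start. Each is the 250 bases before the RefSeq start in GRCm38.p6, 5′ to 3′ on the gene's strand, at chr7:19699189-19699438 (minus strand), chr3:54360857-54361106, chr5:104434861-104435110 and chr11:83708754-83709003 (plus strand). Capitals mark every match, on either strand, to the letters of 4 motifs: TATAAA, the core of a TATA box, CCGGAAG, an ETS core, TGANTCA for AP-1 and AGATAA for GATA factors.
Apoe: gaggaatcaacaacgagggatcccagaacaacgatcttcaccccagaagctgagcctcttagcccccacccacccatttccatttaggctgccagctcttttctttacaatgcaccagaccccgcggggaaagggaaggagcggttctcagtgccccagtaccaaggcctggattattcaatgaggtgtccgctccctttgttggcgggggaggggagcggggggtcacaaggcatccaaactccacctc
Postn: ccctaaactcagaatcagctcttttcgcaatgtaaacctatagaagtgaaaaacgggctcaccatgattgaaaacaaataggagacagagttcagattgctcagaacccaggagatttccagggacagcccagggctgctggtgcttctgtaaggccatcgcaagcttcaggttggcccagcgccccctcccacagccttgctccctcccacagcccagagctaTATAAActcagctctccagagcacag
Spp1: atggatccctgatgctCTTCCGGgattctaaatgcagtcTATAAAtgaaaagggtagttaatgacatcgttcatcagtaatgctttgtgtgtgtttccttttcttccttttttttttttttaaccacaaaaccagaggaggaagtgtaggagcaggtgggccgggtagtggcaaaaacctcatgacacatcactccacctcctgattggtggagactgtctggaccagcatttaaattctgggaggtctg
Wfdc18: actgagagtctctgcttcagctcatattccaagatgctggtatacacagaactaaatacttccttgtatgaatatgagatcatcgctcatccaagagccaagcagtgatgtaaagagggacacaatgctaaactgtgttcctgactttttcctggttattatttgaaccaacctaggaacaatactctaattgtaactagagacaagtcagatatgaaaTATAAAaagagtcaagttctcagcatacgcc
The Apoe window held no match. TATAAA began 26 bases before the start in Postn, 31 in Wfdc18 and 211 in Spp1, so it was found in both basal and luminal genes, and Spp1 also held the ETS core on the opposite strand.

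Motif shares were counted in the promoters of all genes that had one in the RefSeq table, on both strands, after the differences had been seen. A gene counted when any of its listed promoters held the letters. TATAAA was in 16.5% of 164 genes higher in basal cells, 7.47% of 2155 genes higher in luminal cells and 8.69% of 10065 genes that reached 1 FPKM. The ETS core was in 5.49%, 19% and 14.7% of the same sets. The AP-1 motif was in 11%, 6.26% and 6.07%. The GATA motif was in 6.1%, 7.56% and 7.61%. Over all 14268 genes of the expression table with a promoter the shares were 11.5% for TATAAA, 11.4% for the ETS core, 7.13% for AP-1 and 9.16% for GATA. A match describes these letters in this window and was not measured as a bound site.

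The named genes differed in how far these choices of cells moved them. Of 169 named genes past a difference of 1, 136 were still past 1 in the same direction in cells of 2000 genes or more and 128 in the 8 matched pairs. Basal signals such as Tgfbr3, Lgr4, Fstl1 and Nrg1 had larger differences there than over all cells. Spp1, at -9.37 over all cells, was at -9.01 and -9.07. All 16 oxidative phosphorylation genes looked at as a check were higher in luminal cells over all cells, 11 in cells of 2000 genes or more, 12 with equal gene number and 6 in the matched pairs, where 2 were higher in basal cells. Of 13 housekeeping genes, 4 were higher in luminal cells over all cells and in the matched pairs, 2 in cells of 2000 genes or more and 3 with equal gene number. The luminal shares over all genes were 21.1% over all cells, 17.1% in cells of 2000 genes or more and 5.44% with equal gene number. In the matched pairs 8.4% of all genes were higher in basal and 11.6% in luminal cells. The part of gene number in these differences was not tested.

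The same contrast was available in cells of pregnant mice, taken at day 12.5 of pregnancy in the same gates, none of them shared with the virgin cells. There 540 of the 13203 genes (4.09%) were higher in basal and 1691 (12.8%) higher in luminal cells. Of the 252 genes higher in virgin basal cells, 187 were past 1 in the same direction in pregnancy, 74.2% of the virgin and 34.6% of the pregnant list. Of the 2785 higher in virgin luminal cells, 1208 were, 43.4% of the virgin and 71.4% of the pregnant list. Sparc (8.70), Nrg1 (8.06), 1500015O10Rik (8.45), Tgfbr3 (5.20) and Fstl1 (6.62) were among the former and Spp1 (-7.99) and Ehf (-5.68) among the latter, whereas Areg (-0.03), Cited1 (0.15) and Cebpb (-0.09) showed no difference of 1. The secreted class gave 70 genes higher in basal and 26 higher in luminal cells.

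**Figure D5:**
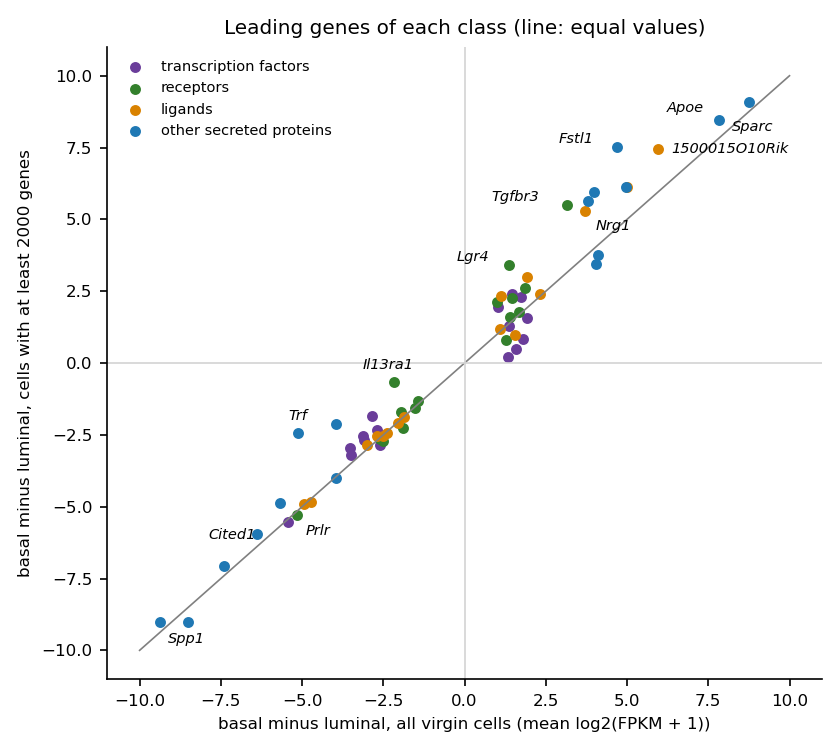
Difference of mean log2(FPKM + 1), basal minus luminal, over all virgin cells (horizontal) against cells with at least 2000 genes (vertical), for the leading genes of each class; the line marks equal values. Most genes higher in basal cells lie above the line, such as Tgfbr3 (3.15 and 5.50), while Il13ra1 (-2.17 and -0.64) and Trf (-5.11 and -2.43) moved toward 0.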

How the data were processed

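The deposited table held 1 value per gene and cell for 18850 genes and 239 cells, all of it mapped to samples by title. The deposited values are taken as FPKM: per the submitters' processing notes the tools were Trimmomatic 0.35, TopHat2 2.0.13 and Cufflinks 2.2.1 with builds mm10 and GRCm38, the table itself names no unit, and its values match that unit. The handling of strand and of near-identical genes was not stated, so close paralogs (Saa1 and Saa2, for example) and overlapping genes are uncertain. No doublet caller was run. No 2 virgin cells had identical values.

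The relative depth of each cell was estimated from low values over many genes. Its absolute scale came from the steps between low values (tolerance 0.05) and the lengths of 1169 single-transcript genes. Differences of mean log2(FPKM + 1) were taken over the 13203 genes that reached 1 FPKM in at least 1 virgin cell, with python 3.11.15, numpy 2.4.6, pandas 2.3.3, scipy 1.17.1 and matplotlib 3.10.9. The code was checked on simulated data. Families of transcription factors, receptors, ligands and other secreted proteins were taken whole, by symbol, in 64 lists with the check lists. The members and lists were chosen with earlier results of these data known.

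Genes were named by rule: the 10 largest differences in each direction (leaving out keratins, actins, milk proteins and the sort antigens Cd24a and Itgb1), the 8 largest in each direction per class, both among genes in at least 25% of the higher group's cells, up to 4 members per list, and a set of known mammary genes. Genes named in the rule on detection in 75% of 1 gate, Scn7a, Cldn3 and Cldn7 among them, were chosen after their values were seen. Alternatives changed the pseudocount, the filter, the scaling and the cells. Gene positions are from GENCODE M21 and promoters from RefSeq, where 14268 of the 18850 genes matched.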

Additional observations from a re-analysis of the deposited data

How the results depend on the processing

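The count of genes higher in basal cells, 252, became 425 with a pseudocount of 0.1, 98 with 10, 504 in cells of 2000 genes or more, 1109 in the matched pairs, 1993 as the log2 ratio of mean FPKM and 424 with equal gene number. The luminal count, 2785, became 5182, 768, 1528 in the matched pairs and 718 with equal gene number, and at 10 FPKM the medians of genes per cell were 1116 and 2199. Rescaling each cell's sum, leaving out the fibroblast-marker cell or the endothelial-marker cells, and the filters on genes kept both counts within 1.5 times. No cell went against its gate by the markers, so that alternative changed nothing.

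Of 169 named genes past 1, 12 turned direction in the matched pairs: Atf3 0.33, Cxcl16 0.11, Elf1 0.47, Fos 1.17, Hprt 2.04, Id2 0.90, Jun 1.45, Meis1 0.13, Tbx3 0.73, Tgif1 1.09, Tnfrsf12a 0.65 and Wnt5a 0.0063. With equal gene number 9 turned: Bmpr1a 0.33, Ctnnb1 0.64, Hes1 0.25, Nfib 0.32, Notch2 0.048, Stat5a 0.16, Tbx3 0.22, Tnfrsf21 0.34 and Zfhx3 0.14. As a ratio of mean FPKM 7 turned: Ctnnb1 0.20, Elf1 0.020, Hprt 0.13, Jun 0.80, Ndufb8 0.046, Tgif1 0.29 and Tnfrsf12a 0.77. In cells of 2000 genes or more, which held no endothelial-marker cell, the endothelial marker Emcn went to -0.0016 and Hprt to 0.44. The cause was not tested. No paired analysis was possible because the numbers in the titles only name cells and the results come from no test.

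With each gate counted as 1 sample, no difference here has a replicate error. The matched pairs rest on 8 cells a gate, with median depths of 15.1 M fragments in basal and 7.85 M in luminal cells. An FPKM of 0 does not show absence: Hprt, a housekeeping gene, was at 1 FPKM or more in 17 of 34 basal and 41 of 54 luminal cells.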

Other observations

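Of the genes past 1 in both states, 52 pointed one way in virgin and the other way in pregnant cells. They were 50 of the 2785 genes higher in virgin luminal cells and 2 of the 252 higher in virgin basal cells. These lists differed in size, so the split of 50 and 2 by itself shows no preferred direction. The 52 genes were looked at after their values were seen, and no test of the difference between the states was possible. Ptn, the growth factor pleiotrophin, had the largest opposite values by the smaller of the 2: -4.74 in virgin cells, where 15 of 34 basal and 46 of 54 luminal cells had it, and 2.95 in pregnant cells, where 66 basal and 3 luminal cells did. Its virgin difference was -4.85 in cells of 2000 genes or more and -2.86 in the matched pairs. Anxa2, an annexin that binds membranes and plasminogen, went from -2.87 to 3.82, and S100a6, a calcium-binding protein, from -2.52 to 5.25. In virgin cells of 2000 genes or more these 2 stood at -1.46 and -1.998, and in the matched virgin pairs at -0.48 and 0.12.

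Fgfr2, the FGF receptor, went from -2.52 in virgin to 1.60 in pregnant cells, where 51 basal and 4 luminal cells had it, and stood at -2.71 in virgin cells of 2000 genes or more. Sox9 went from -1.88 to 1.21 and Il13ra1 from -2.17 to 1.52. In the other direction, Cd36, a fatty acid transporter, was higher in virgin basal cells at 1.46 and higher in pregnant luminal cells at -4.24. Without the 6 endothelial-marker cells its virgin difference was 0.04.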
